A study of Homo sapiens with 6 samples.

Results

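The 9 genes described here encode transcription factors that are counted among the inducers of the epithelial-mesenchymal transition (EMT): SNAI1, SNAI2, SNAI3, ZEB1, ZEB2, TWIST1, TWIST2, PRRX1 and FOXC2. They are 9 of 20033 protein-coding genes in the GENCODE 44 annotation of hg38, and were chosen by name. A peak was assigned to a gene when its summit lay in the gene or within 50 kb on either side, stopping at the next protein-coding gene, and this stretch is called the locus. The 9 loci covered 1275 kb together and held 35 of 51530 DPF3a peaks, 30 of 46367 SMAD4 peaks and 16 of 20380 p300 peaks.

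The peaks come from chromatin immunoprecipitation followed by sequencing (ChIP-seq) in 786-O cells, an established clear cell renal cell carcinoma line, with 2 replicate libraries per factor. The study asked whether DPF3a, SMAD4 and p300 meet at genes of cell movement. DPF3a, the short isoform of the SWI/SNF chromatin remodelling subunit DPF3, was overexpressed with an HA tag and pulled down through that tag, from chromatin fixed with disuccinimidyl glutarate, a protein crosslinker, and then formaldehyde. SMAD4, the common partner of the SMAD proteins that TGF-β and BMP receptors activate, and the histone acetyltransferase p300 were pulled down as endogenous proteins from chromatin fixed with formaldehyde alone, and the labels do not say whether those cells overexpressed DPF3a. The data hold 1 peak list per factor, made from both libraries, for 1 cell line and no other condition. The spread between libraries is thus unknown, and no test was made. The antibody, fixation, cells and depth of a list cannot be told apart from its factor, so strengths are compared within a list only.

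During EMT, epithelial cells loosen their junctions, lose apical-basal polarity and gain the ability to move. The Snail and ZEB proteins are zinc finger factors that bind E-box sequences and repress epithelial genes such as CDH1, which encodes E-cadherin. The TWIST proteins are basic helix-loop-helix factors that also bind E-boxes, while PRRX1 is a homeobox factor and FOXC2 a forkhead factor of mesenchymal cells. TGF-β signalling, which acts through SMAD4 and receptor-activated SMAD proteins, is a classical inducer of several of these genes.

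For 7 of the 9 genes, all but SNAI2 and SNAI3, 101 bases of hg38 are shown, with 50 bases to either side of the summit at the site of the highest rank: a site of all 3 factors, otherwise a site of a pair of factors, otherwise the peak that stood highest in its own list. All are written on the plus strand. The TWIST1 peak shown tied in rank with the p300 peak 65.9 kb downstream of the start, and was taken because it comes first by coordinate. Capitals mark the AP-1 consensus TGACTCA, bound by dimers of FOS and JUN proteins, and the SMAD box CAGAC or its reverse complement GTCTG. These are matches of letters, not sites shown to be bound. Other factors named in a label have a peak at the same site, but their summits can lie outside the window. The window labelled FOXC2 lies in the neighbouring gene MTHFSD, outside the FOXC2 locus, and its site cannot be assigned to FOXC2.
SNAI1 DPF3a summit with SMAD4, chr20:50030089-50030189: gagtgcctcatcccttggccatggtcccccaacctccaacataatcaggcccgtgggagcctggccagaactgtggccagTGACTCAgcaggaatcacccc
ZEB1 DPF3a summit with p300 at the start, chr10:31318829-31318929: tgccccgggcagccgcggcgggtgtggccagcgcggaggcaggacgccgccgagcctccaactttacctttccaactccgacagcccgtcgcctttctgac
ZEB2 DPF3a summit with SMAD4, chr2:144358094-144358194: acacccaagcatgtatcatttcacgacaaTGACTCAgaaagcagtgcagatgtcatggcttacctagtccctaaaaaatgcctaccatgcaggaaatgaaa
TWIST1 p300 summit, chr7:19045486-19045586: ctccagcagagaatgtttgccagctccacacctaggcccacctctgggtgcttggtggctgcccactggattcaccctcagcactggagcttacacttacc
TWIST2 DPF3a summit with SMAD4 and p300, chr2:238864333-238864433: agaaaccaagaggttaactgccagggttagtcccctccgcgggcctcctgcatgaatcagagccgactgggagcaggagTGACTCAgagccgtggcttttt
PRRX1 DPF3a summit with SMAD4, chr1:170708168-170708268: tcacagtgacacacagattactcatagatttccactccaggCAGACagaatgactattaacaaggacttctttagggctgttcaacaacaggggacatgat
FOXC2 DPF3a summit with SMAD4 and p300, chr16:86554953-86555053: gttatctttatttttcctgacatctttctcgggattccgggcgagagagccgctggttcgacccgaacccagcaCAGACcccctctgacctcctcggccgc

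A further window was chosen after its values were seen, that of the TWIST2 site with the next highest DPF3a fold enrichment.
TWIST2 DPF3a summit with SMAD4 and p300, downstream end, chr2:238910963-238911063: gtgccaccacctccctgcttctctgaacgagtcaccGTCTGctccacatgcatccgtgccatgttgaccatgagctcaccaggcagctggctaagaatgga

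The 8 windows differ in base content. The window at the start of ZEB1 was 70.3% G and C. The distal windows of ZEB2 and PRRX1 were both 42.6% G and C, and the other windows lay between these values.

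The DPF3a list reached all 9 genes, the SMAD4 list 8 and the p300 list 6. The loci of 70.9% of all protein-coding genes held a DPF3a summit, against 9 of 9 here. SMAD4 summits were in the loci of 75.1% of genes, and here only the TWIST1 locus had none. A p300 summit was present in 54% of the loci of all genes and in 6 of 9 here, with SNAI1, SNAI3 and PRRX1 lacking one. The loci of these genes were long, with a median of 142 kb against 70.7 kb over all genes, which gives more room for a summit. Per 100 kb, pooled over loci, they held 2.75 DPF3a, 2.35 SMAD4 and 1.25 p300 peaks, against 2.27, 2.19 and 0.961 over all genes. With 9 genes, these counts stood close to the background of all genes.

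At promoters the shares were not higher than over all genes. A promoter was taken as 1000 bp upstream to 100 bp downstream of any transcript start of the gene. DPF3a summits were in the promoters of 3 of 9 genes (SNAI2, SNAI3 and ZEB1), against 41.7% of all genes. SMAD4 summits were in the promoters of 5 of 9 genes (SNAI1, SNAI2, SNAI3, ZEB1 and ZEB2), against 57.2%. The p300 list had promoter summits at 2 of 9 genes (SNAI2 and ZEB1), against 32.9%. TWIST1, TWIST2, PRRX1 and FOXC2 had no promoter summit in any list. Most summits were distal: of the 35 DPF3a summits, 15 lay downstream of the gene, 9 in introns, 5 upstream, 3 in promoters, 2 in untranslated exons and 1 in the annotated span outside the canonical transcript. Of the 30 SMAD4 summits, 13 were downstream, 6 in introns, 6 in promoters and 4 upstream, and of the 16 p300 summits 6 were in introns and 3 in promoters. No summit of any list lay in a coding exon.

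**Figure D1:**
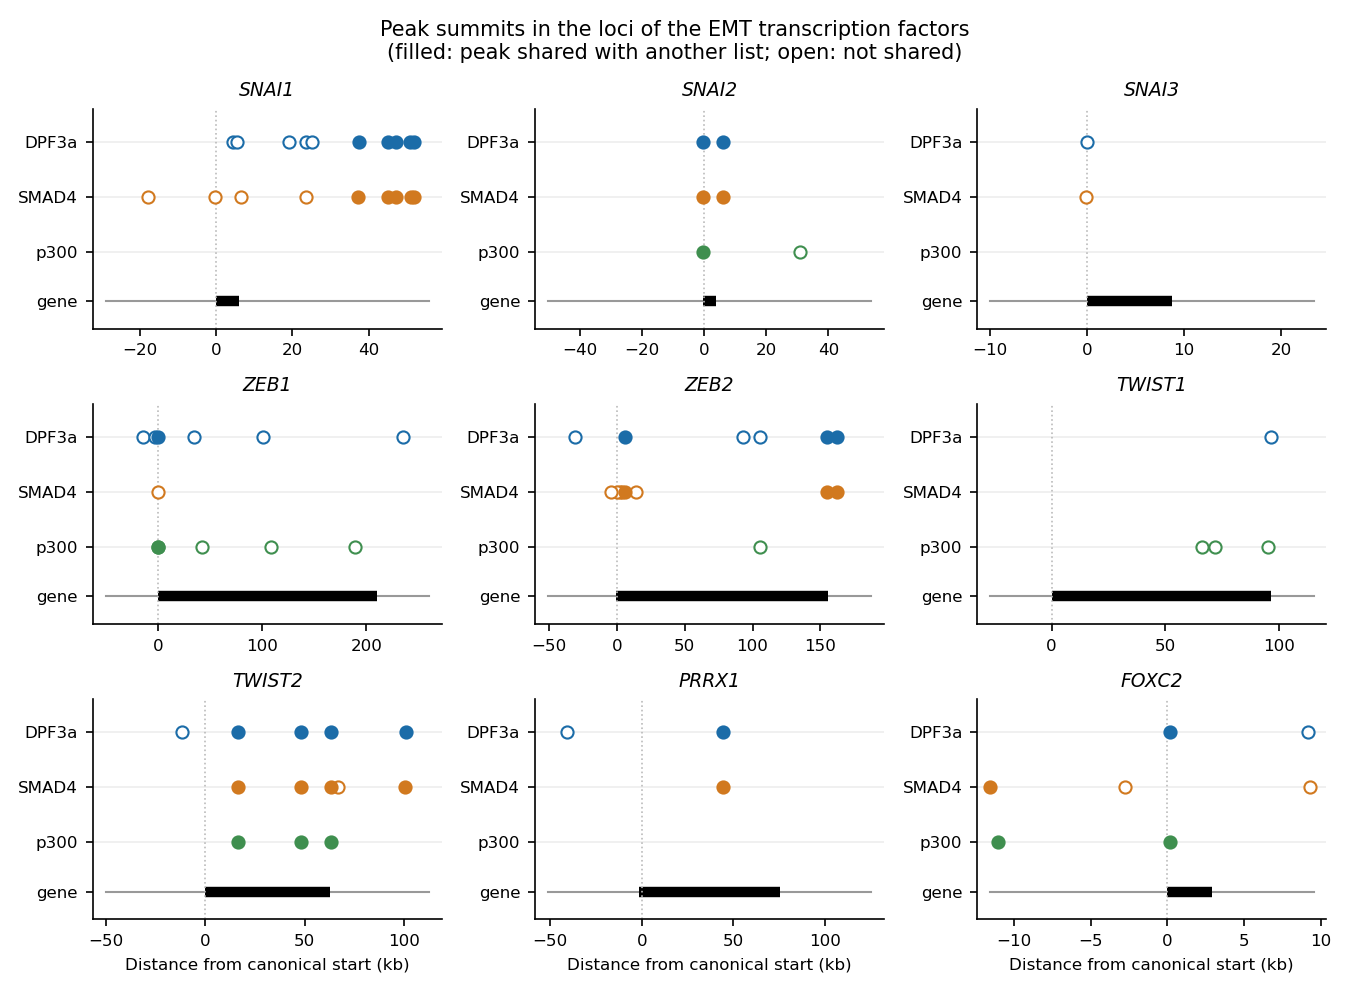
Each panel shows 1 gene, with the distance of every peak summit from the start of the canonical transcript in kb, positive in the direction of transcription, for the DPF3a, SMAD4 and p300 lists. Filled points are peaks shared with another list and open points are not, the black bar is the annotated gene and the grey line the locus, scales differ between panels, and close points overlap: SNAI1 had a row of shared DPF3a and SMAD4 summits 37.1 to 51.9 kb downstream, and TWIST2 had 3 places where all 3 lists had a peak.

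Peaks of different lists were called 1 shared site when they overlapped by at least 0.5 of the length of both. The 9 loci held 59 sites, of which 5 belonged to all 3 factors, 11 to DPF3a and SMAD4, 2 to DPF3a and p300, 18 to DPF3a alone, 14 to SMAD4 alone and 9 to p300 alone. The loci of 6 of 9 genes held a site of DPF3a and SMAD4, with or without p300, against 61.7% of all genes. Sites of all 3 factors were found in the loci of SNAI2, TWIST2 and FOXC2, which is 3 of 9 genes, against 38.1% of all genes. The one counted for FOXC2 lay at the edge of its locus, next to the gene MTHFSD. Both counts were near the background of all genes.

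Sharing was also counted per list, with small counts and no test of the difference from the whole list. Of the 35 DPF3a peaks, 15 were shared with SMAD4, which is 42.9% (95% Wilson interval 28.0 to 59.1) against 59.3% of the whole list. Of the 30 SMAD4 peaks, 16 were shared with DPF3a, or 53.3% (36.1 to 69.8) against 65.9%. These intervals cover counting error only, and peaks of 1 locus are not independent of each other. The SMAD4 interval includes the share of the whole list, and the upper end of the DPF3a interval lies just under it. With an overlap of 1 bp, 14 DPF3a peaks (40%, 25.6 to 56.4) touched neither other list, against 31.6% of all DPF3a peaks.

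**Figure D2:**
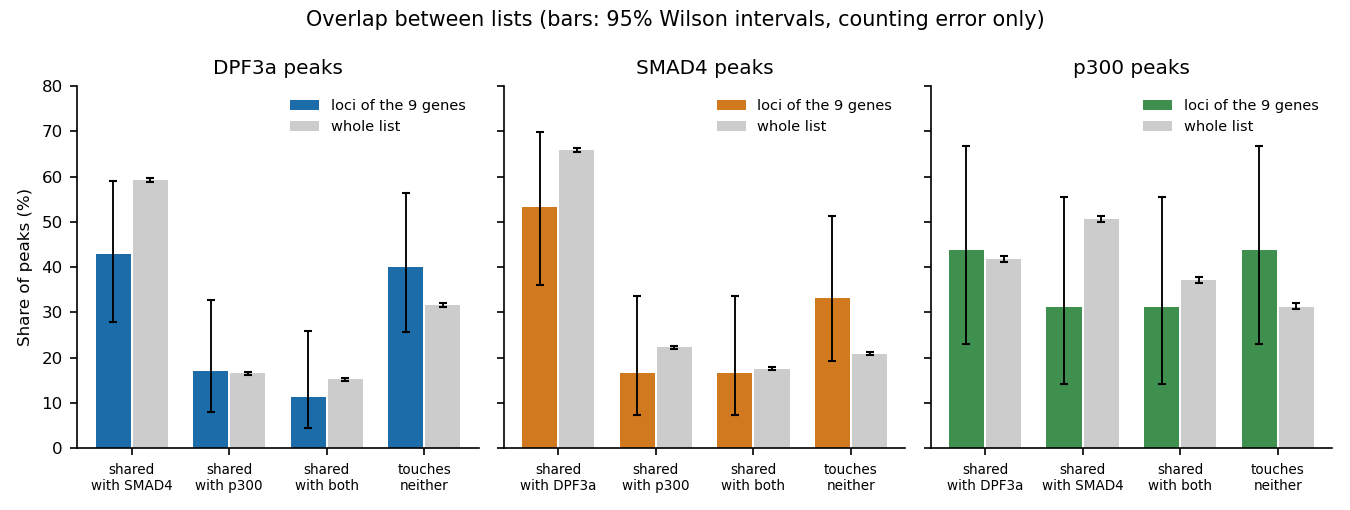
Bars give the percent of peaks of each list that are shared with another list, with both, or touch neither, for the loci of the 9 genes in colour and the whole list in grey, with 95% Wilson intervals. The DPF3a share with SMAD4 was 42.9% against 59.3%, just above the upper end of its interval at 59.1%, and the interval of the coloured bar included the grey bar in every other pair.

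SNAI1, which encodes Snail, a repressor of CDH1, had the most peaks, with 10 DPF3a peaks, 9 SMAD4 peaks and none of p300 in a locus of 85.0 kb. The gene is at chr20:49982980-49988886 on the plus strand, and the locus ends upstream at RNF114. Of all protein-coding genes, 4.11% had as many DPF3a peaks or more in their loci, and 4.56% as many SMAD4 peaks or more. The count of DPF3a peaks per 100 kb was 11.8, which 3.82% of genes reached.

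At its start, SNAI1 had SMAD4 but no DPF3a summit. The SMAD4 summit lay 262 bp upstream of the start, with 105 reads (95% Poisson interval 85.9 to 127), a local background of 14.5 reads and a fold enrichment of 6.82, higher than 57.3% of the SMAD4 list. The fold enrichment divides the reads at the summit by those of the local background, after adding 1 to both. The nearest DPF3a summit was 4477 bp downstream of the start, in intron 2, with 41 reads over a background of 7.84 and a fold enrichment of 4.75, and a further one lay 5440 bp downstream in an untranslated part of exon 3. The nearest p300 summit was 46224 bp upstream, outside the locus. A peak that is not listed was not detectable at this depth and threshold, which is not the same as absent binding: at the genome-wide background a DPF3a peak needed 11 reads and a p300 peak 14 reads, and more where the local background was higher.

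All 5 sites that DPF3a and SMAD4 shared at SNAI1 lay far downstream, between 37.1 and 51.9 kb from the start, in sequence where no other gene is annotated. The site with the highest mean rank over both lists, which also had the most reads, was at chr20:50030139 for DPF3a and chr20:50030153 for SMAD4, 14 bp apart. There SMAD4 had 237 reads (208 to 269) over a background of 25.1, a fold enrichment of 9.12 that stood above 81.6% of its list. DPF3a had 100 reads (81.4 to 122) over 15.2, a fold enrichment of 6.23 that stood above 42.2% of its list. Its window is printed above, and it holds an AP-1 consensus that starts 30 bases from the DPF3a summit. By DPF3a fold enrichment alone the site at 37.3 kb stood higher, with 35 reads over 3.62 and a fold enrichment of 7.79 (64.0th percentile). SMAD4 had 38 reads over 4.94 there and a fold enrichment of 6.57 (53.8th percentile), with its summit 241 bp from that of DPF3a.

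The local background was high in this downstream stretch. No control library is named, and how many of these background reads come from the peaks themselves was not measured. The local backgrounds of the 4 shared sites between 45.1 and 51.9 kb were 10.4, 15.2, 12 and 11.5 reads for DPF3a and 21.0, 25.1, 19.4 and 18.1 reads for SMAD4, against medians of 2.82 and 5.16 reads over the lists. The DPF3a peaks of SNAI1 had a median fold enrichment of 4.61, against 6.70 over the list, and a median height of 41.5 reads, against 25. Of its 10 DPF3a peaks, 1 was above the median fold enrichment of the list. The site at 50.9 kb had the lowest SMAD4 value, with 47 reads over 19.4 and a fold enrichment of 2.35 (0.134th percentile).

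SNAI2, which encodes Slug, is at chr8:48917598-48921740 on the minus strand and had a promoter summit in each of the 3 lists, as did only ZEB1 besides it. It was the only one of the 9 genes where the 3 peaks made a shared site at the start. The summits lay 72 bp (DPF3a), 184 bp (SMAD4) and 77 bp (p300) from the nearest transcript start, and 383, 495 and 388 bp upstream of the canonical start. DPF3a had 19 reads (11.4 to 29.7), SMAD4 60 reads (45.8 to 77.2) and p300 32 reads (21.9 to 45.2). The 3 summits fell within 112 bp of each other, and the gene ENSG00000288761 is annotated over all of them.

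Their standing differed between lists. The p300 peak, with a fold enrichment of 6.52, was above 92.5% of its list and the strongest of the 16 p300 peaks of these loci, with a −log10 q of 14.3. The SMAD4 peak stood at the 42.2nd percentile (fold enrichment 5.80) and the DPF3a peak at the 30.7th (5.65). SNAI2 also had a DPF3a and SMAD4 site about 6 kb downstream of the start, at 6070 and 6128 bp, with 13 and 26 reads and an AP-1 consensus within 50 bp of both summits. A last p300 peak, 31.0 kb downstream, had 14 reads at the genome-wide background of 2.05 and touched no other list.

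SNAI3, a further gene of the Snail family, is at chr16:88677688-88686507 on the minus strand, with a locus of 33.3 kb between MVD and RNF166. Its locus held 1 DPF3a and 1 SMAD4 peak, both at the start. The DPF3a summit was 16 bp downstream of the start, with 14 reads (7.65 to 23.5), a fold enrichment of 5.03 and a place above 16.7% of the list. The SMAD4 summit was 43 bp upstream of the start, with 37 reads (26.1 to 51) and a fold enrichment of 5.57 (38.9th percentile). The DPF3a peak lay wholly inside the wider SMAD4 peak but covered less than 0.5 of it, so they count as separate sites. The antisense gene SNAI3-AS1 is annotated over both summits, so they cannot be assigned to 1 of the genes.

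ZEB1, a repressor that is in mutual repression with the miR-200 microRNAs, spans 211320 bp at chr10:31318495-31529814 on the plus strand. It had 6 DPF3a, 1 SMAD4 and 5 p300 peaks. All 3 lists had a summit at the start, yet no site of all 3 was counted: DPF3a and p300 summits lay 16 bp apart, 337 and 321 bp upstream of the canonical start, whereas the SMAD4 peak was 2478 bp wide with a summit 165 bp downstream of that start. It touched both of the others without overlapping them by 0.5 of both. A second p300 peak, with 24 reads (15.4 to 35.7) and a summit 89 bp downstream of the start, lay wholly inside the SMAD4 peak but covered less than 0.5 of it, and was also counted as a site of its own. The DPF3a peak had 26 reads (17 to 38.1) and a fold enrichment of 4.41 (7.17th percentile). The p300 peak of the shared site also had 26 reads (17 to 38.1) and stood at the 14.0th percentile, and the second p300 peak at the 7.65th. All these summits also lie in the antisense gene ZEB1-AS1.

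The DPF3a peaks of ZEB1 away from the start stood higher in their list than the one at the start, apart from 1 of them. The summit 235 kb downstream of the start, beyond the gene, had 37 reads and a fold enrichment of 11.2 (88.3rd percentile), and the one in intron 1 at 34.5 kb had 33 reads and 9.83 (81.1st percentile). A summit 14.8 kb upstream had 23 reads and 9.23 (76.9th percentile). The other 2 distal ones, 3.55 kb upstream and 100 kb downstream, stood at the 1.59th and 18.5th percentiles. None of these 5 touched a peak of another list.

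The 3 p300 peaks in introns of ZEB1, at 42.1, 109 and 189 kb, had 14, 14 and 16 reads at a background of 2.06, 2.05 and 2.05 reads. They touched no other list, and all 3 were close to the lowest height that could be listed.

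ZEB2, the other ZEB repressor, spans 156694 bp at chr2:144364364-144521057 on the minus strand, with a locus that ends downstream at GTDC1. It had 6 DPF3a, 8 SMAD4 and 1 p300 peaks. The DPF3a and SMAD4 lists met at 3 sites. The strongest in rank over both lists lay 162 kb downstream of the start, past the gene, with summits 10 bp apart: DPF3a had 34 reads and a fold enrichment of 7.51 (60.9th percentile), and SMAD4 46 reads and 7.94 (70.5th percentile). Its window, printed above, holds an AP-1 consensus that starts 21 bases from the DPF3a summit.

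The other shared sites of ZEB2 were at 155 kb and at 6.21 kb from the start. At 155 kb the DPF3a peak was strong, with 44 reads (32.0 to 59.1) and a fold enrichment of 10.4 (84.3rd percentile), while the SMAD4 peak had 17 reads (9.90 to 27.2) and 4.31 (13.4th percentile). At 6.21 kb, in intron 2, both were weak in rank, at the 1.99th percentile for DPF3a and the 1.71st for SMAD4.

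Around the ZEB2 start SMAD4 had a run of 6 summits from 4.29 kb upstream to 14.4 kb downstream, 2 of them in promoter windows, whereas DPF3a had 1 summit there and p300 none. The summit 22 bp upstream of the canonical start had 38 SMAD4 reads (26.9 to 52.2) over a background of 12.7, a fold enrichment of 2.84 (0.979th percentile), and also lies in the antisense gene ZEB2-AS1. The 5 others had 19 to 45 reads. The only p300 peak of ZEB2 was in intron 4, at 106 kb, with 17 reads (9.90 to 27.2) at the genome-wide background, and touched a DPF3a peak of 20 reads.

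TWIST1, which encodes a helix-loop-helix factor of the mesoderm, had no summit of any list near its start. Its canonical transcript is at chr7:19115468-19117636 on the minus strand, but the annotated gene reaches 96646 bp, to position 19020991, and the locus is bounded by HDAC9 and FERD3L. The nearest DPF3a summit was 59813 bp upstream, the nearest SMAD4 summit 139309 bp downstream and the nearest p300 summit 64720 bp upstream, all outside the locus. Among all genes, 16.2%, 8.49% and 26.4% had a nearest summit at least this far away.

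Of the 4 peaks assigned to TWIST1, the 3 of p300 lay within the annotated span beyond the canonical transcript, and the DPF3a summit lay just past the end of the span. The p300 peaks at 65.9, 72.1 and 95.3 kb downstream of the start had 15, 15 and 14 reads at the genome-wide background of 2.05 reads. The DPF3a peak at 96.7 kb had 13 reads (6.92 to 22.2) over 1.64 and a fold enrichment of 5.30 (22.3rd percentile). None of them touched a peak of another list. With the locus drawn around the canonical transcript, an alternative chosen with the data in view, TWIST1 had no peak in any list: the members with a DPF3a peak fell from 9 to 8 and those with a p300 peak from 6 to 5.

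TWIST2 had the highest DPF3a peak of all 9 genes and 3 of the 5 sites of all 3 factors. The gene, which encodes a close relative of TWIST1, spans 62503 bp at chr2:238848032-238910534 on the plus strand. Its locus held 5 DPF3a, 5 SMAD4 and 3 p300 peaks, and every p300 peak was in a site with both other factors. Of all protein-coding genes, 2.74% had 3 or more such sites in their loci, a share that takes no account of length. The locus of TWIST2 was 163 kb long, against a median of 70.7 kb over all genes. Per 100 kb it held 3.08 DPF3a, 3.08 SMAD4 and 1.85 p300 peaks, which 36.4%, 38.9% and 25.9% of genes reached.

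The highest site was in intron 1, 16.3 kb downstream of the start. There DPF3a, with a peak at chr2:238864077-238864881, had 107 reads (87.7 to 129) over a background of 5.34 and a fold enrichment of 17, higher than 99.6% of its list. SMAD4 had 78 reads (61.7 to 97.3) over 6.56 and a fold enrichment of 10.4 (90.3rd percentile), with its summit 16.4 kb from the start. The p300 peak, with 27 reads (17.8 to 39.3) over 5.92, stood low in its own list by fold enrichment, at 4.05 (18.7th percentile). Its height and its −log10 q of 6.97 were above the list medians of 23 reads and 6.79. The AP-1 consensus of the printed window starts 29 bases from the DPF3a summit, and the 3 summits were spread over 243 bp.

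The other sites of all 3 factors at TWIST2 were at 48.0 kb, in the same intron, and at 62.9 kb, just past the end of the gene. At 48.0 kb DPF3a had 31 reads (fold enrichment 10.3), SMAD4 28 reads (7.32) and p300 22 reads (3.73), with summits within 88 bp. At 62.9 kb they had 49 reads (11.5), 22 reads (5.42) and 27 reads (4.47), with summits within 29 bp. The p300 peak of the site at 48.0 kb had a −log10 q of 5.13, close to the lowest of the p300 list, 5.1. A site of DPF3a and SMAD4 lay further downstream, at 101 kb, with 35 and 38 reads. By fold enrichment, all 5 DPF3a peaks of TWIST2, at the 78.4th to 99.6th percentiles, were above the median of their list. Its 3 p300 peaks, at the 10.8th to 31.4th, were below the median of theirs. By −log10 q, the p300 peaks at 16.5 and 62.9 kb, with 6.97 and 7.98, were above the list median of 6.79, and the one at 48.1 kb was below it. The start itself was bare, since the nearest summit, of DPF3a, was 11481 bp upstream.

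**Figure D3:**
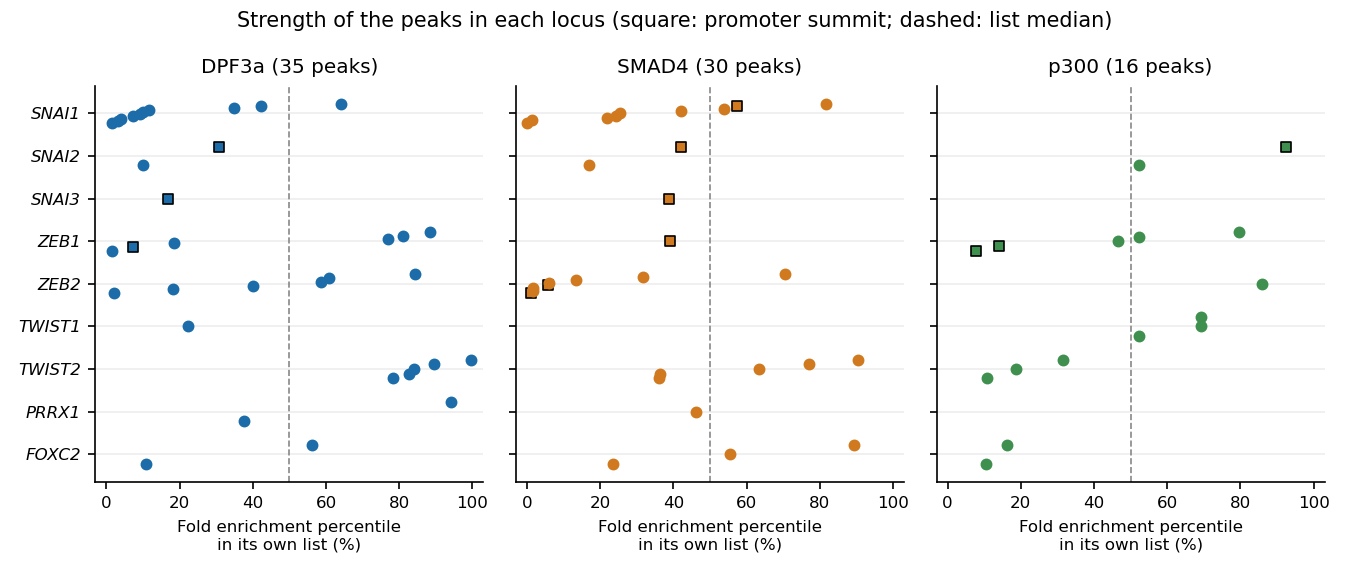
Each point is 1 peak, placed by the percentile rank of its fold enrichment in its own list, with 1 row per gene and 1 panel per list. The TWIST2 peaks stand at 78.4% or more in the DPF3a panel and at 31.4% or less in the p300 panel, and the promoter summits, drawn as squares, are below the dashed list median except SNAI1 for SMAD4 and SNAI2 for p300.

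PRRX1, a homeobox gene whose product acts with TWIST1 in mesenchymal cells, spans 76694 bp at chr1:170662728-170739421 on the plus strand. It had 2 DPF3a peaks, 1 SMAD4 peak and no p300 peak. Its single shared site was in intron 1, 44.1 kb from the start, with the summits 36 bp apart. DPF3a had 46 reads (33.7 to 61.4) over 2.68 there, and its fold enrichment of 12.8 was higher than 94.1% of the list, the highest DPF3a value after that in intron 1 of TWIST2. SMAD4 had 19 reads (11.4 to 29.7) over 2.3 and a fold enrichment of 6.06 (46.3rd percentile). The window holds a CAGAC that starts 9 bases from the DPF3a summit. The other DPF3a peak, 40.8 kb upstream, had 12 reads (6.20 to 21.0) at the genome-wide background of 1.17.

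FOXC2, a forkhead gene of mesenchyme and lymphatic vessels, is 2900 bp long, at chr16:86566829-86569728 on the plus strand, in a locus of 21.1 kb between MTHFSD and FOXL1. It had 2 DPF3a, 3 SMAD4 and 2 p300 peaks, which made 14.2 SMAD4 and 9.46 p300 peaks per 100 kb, counts that 3.90% and 2.55% of genes reached. In so short a locus 1 peak changes these values by much.

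At the start of FOXC2, DPF3a and p300 shared a site without SMAD4. The summits lay 159 and 171 bp downstream of the start, in the untranslated first part of exon 1 and just beyond the promoter window. DPF3a had 14 reads (7.65 to 23.5), at the 10.7th percentile of its list, and p300 23 reads (14.6 to 34.5), at the 10.6th percentile. The antisense transcript FOXC2-AS1 is annotated over both summits.

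The site of all 3 factors at FOXC2 lay at the upstream edge of the locus, and its summits were 790 bp apart. SMAD4 had 65 reads (50.2 to 82.8) over 5.42, with a fold enrichment of 10.3 (89.4th percentile), 11.6 kb upstream of the start. The p300 summit was 11.0 kb upstream, with 23 reads (14.6 to 34.5) and a fold enrichment of 3.95. The DPF3a summit, with 14 reads (7.65 to 23.5), fell 11826 bp upstream of the start and so in MTHFSD, outside the locus. The locus starts at position 86555236, directly after MTHFSD, and the SMAD4 summit is at 86555245. All 3 summits thus lay nearer to MTHFSD than to the start of FOXC2, and the site cannot be assigned to FOXC2. When summits within 200 bp were required, it was not counted, and 4 sites of all 3 factors were left. Downstream, at 9.19 and 9.30 kb, DPF3a (26 reads) and SMAD4 (56 reads) peaks touched without being shared.

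How the peaks of these genes stood in strength within the lists depended on the measure. The median fold enrichment of the DPF3a peaks was 5.87, with a 95% interval from the ordered values of 4.75 to 7.51 that includes the list median of 6.70. It was 5.44 (4.69 to 6.06) against 6.30 for SMAD4, where the interval lies below the list median, and 4.91 (3.87 to 5.25) against 4.92 for p300. These intervals treat the peaks as independent, which peaks of 1 locus are not. SNAI1 and ZEB2 alone gave 9 and 8 of the 30 SMAD4 peaks. Above the list median were 14 of 35 DPF3a, 9 of 30 SMAD4 and 5 of 16 p300 peaks. In the whole lists these were 25753 of 51530, 23182 of 46367 and 8760 of 20380, the last lowered by p300 peaks that tie at the median. By −log10 q, which also depends on the height, the medians were 14.1 against 12.8 for DPF3a, so that the order was turned, 15.7 against 18.0 for SMAD4 and 5.89 against 6.79 for p300. The median height was 30 reads against 25 for DPF3a and 39.5 against 39 for SMAD4, with SNAI1 giving 10 of the 35 DPF3a peaks.

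**Figure D4:**
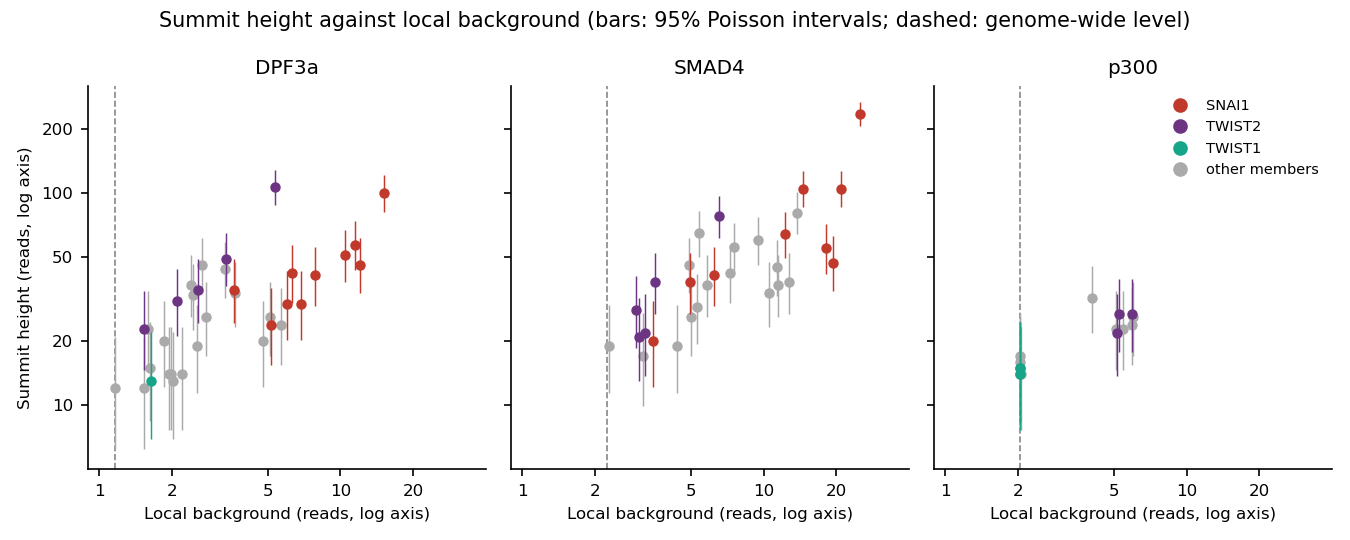
Summit height in reads is plotted against the local background in reads, both on log axes, for each peak of the 9 loci, with 95% Poisson intervals and the genome-wide background as a dashed line. SNAI1 peaks lie to the right, with backgrounds of up to 15.2 (DPF3a) and 25.1 reads (SMAD4), the TWIST2 peak of 107 DPF3a reads stands above the others at its background, and the TWIST1 p300 peaks of 14 to 15 reads lie on the dashed line.

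The p300 peaks of these genes fell into different kinds. Of the 16, 9 touched a peak of another list. The 7 others, which were 3 at ZEB1, 3 at TWIST1 and 1 at SNAI2, had 14 to 16 reads over a background of 2.05 or 2.06 reads, where 2.05 is the genome-wide level. They made 43.8% of these p300 peaks (23.1 to 66.8), against 31.3% of the whole list. On chromosome 7, which holds TWIST1, and chromosome 8, which holds SNAI2, p300 peaks that touch no other list were denser than over the genome, with 62.9 and 47.6 per 10 Mb against 20.6 over all chromosomes, and the part of this in the TWIST1 and SNAI2 counts was not tested. On chromosome 10, which holds ZEB1, the density was 24.5. Left without such peaks, also chosen with the data in view, the p300 list had 9 peaks at 5 of the 9 genes, none of them at TWIST1.

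The AP-1 consensus was found at more DPF3a summits than windows beside them, in these loci as in the whole list. Within 50 bp of the summit, TGACTCA or its reverse complement was found at 11 of 35 DPF3a summits (31.4%, 18.6 to 48.0), at 22% of the whole list, and in 1.43% of 70 windows 500 bp away from the summits of these loci. The 11 were at SNAI1 (3), SNAI2 (1), ZEB1 (2), ZEB2 (2), TWIST2 (2) and PRRX1 (1). At SMAD4 summits the share was 20% (9.51 to 37.3) against 15.0% of the list, and at p300 summits 12.5% (3.50 to 36) against 3.61%. All 3 intervals are wide and include the share of the whole list.

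SMAD motifs were less distinct. The SMAD box CAGAC was at 28.6% of the DPF3a summits (16.3 to 45.1), against 18.6% (11.2 to 29.2) in windows 500 bp away. In the whole DPF3a list these shares were 20.3% and 16.7%. It was at 16.7% of the SMAD4 summits (7.34 to 33.6), against 20% (11.8 to 31.8) away from them, while in the whole SMAD4 list the order was the other way, with 24.7% at summits and 17.6% away from them. The intervals in these loci include the shares of the whole lists. The palindrome GTCTAGAC was at none of the 81 summits, and at 0.064% of DPF3a, 0.239% of SMAD4 and 0.0294% of p300 summits in the whole lists. The GC-rich GGCGCC was at 2 of 30 SMAD4 summits, those at the starts of SNAI2 and ZEB1, and at 2 of 16 p300 summits, both at ZEB1, against 5.75% and 8.34% of the whole lists. The SMAD4 summit of ZEB1 and its p300 summit 89 bp downstream of the start hold the same GGCGCC.

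E-boxes are the sequences that the Snail, ZEB and TWIST proteins bind. The form CACCTG was at 1 of 35 DPF3a summits (2.86%, 0.506 to 14.5), 4 of 30 SMAD4 summits (13.3%, 5.31 to 29.7) and 2 of 16 p300 summits (12.5%, 3.50 to 36). In the whole lists it was at 6.29%, 6.94% and 12.9%, values within these intervals. By gene, 3 of the 7 summits were at FOXC2, 2 at TWIST2, 1 at SNAI1 and 1 at TWIST1. The DPF3a and p300 summits at the start of FOXC2 hold the same CACCTG, so the 7 summits are not 7 separate sequences. The general form CANNTG, which includes it, was at 45.7% of DPF3a summits in these loci and 41.0% of the list. Of the remaining consensus sequences, the RUNX sequence TGTGGTT was at 1 DPF3a, 1 SMAD4 and no p300 summit, against 7.04%, 6.02% and 1.73% of the whole lists. The TEAD sequence CATTCC was at 3, 3 and 0 summits, against 12.5%, 9.36% and 4.85%, and the ETS sequence CCGGAAGT at none, against 0.34%, 0.595% and 0.378%.

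The starts of the 9 genes were not alike in base content. Within 250 bp of the canonical start, G and C made up 47.9% at ZEB2, 55.5% at SNAI2, 58.7% at PRRX1, 63.3% at FOXC2, 66.9% at ZEB1, 68.5% at TWIST1, 69.7% at SNAI1, 70.9% at TWIST2 and 73.3% at SNAI3. The median was 66.9% against 64.7% over all protein-coding genes. The ratio of observed to expected CpG had a median of 0.839 against 0.776. TWIST1 and TWIST2, at 68.5% and 70.9%, had no promoter summit, and ZEB2, the lowest, had 2 SMAD4 ones. Those of ZEB2 lay 22 bp upstream of the canonical start, with a fold enrichment of 2.84, and 2631 bp downstream of it. The latter is outside the stretch measured here. Whether base content goes with promoter summits was not tested.

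Further genes of the EMT network were counted by the same locus rule. The shares of all protein-coding genes with such summits are 70.9% for DPF3a, 75.1% for SMAD4 and 54% for p300, and 38.1% have a site of all 3 factors. Of 13 other EMT transcription factors, 11 had a DPF3a, 10 a SMAD4 and 7 a p300 summit in the locus, and 5 had a site of all 3 factors, counts near these shares. HMGA2, a chromatin protein that acts upstream of SNAI1 and TWIST1, had 12 DPF3a and 7 SMAD4 peaks and none of p300. TCF4, a helix-loop-helix partner of the TWIST proteins, had 12, 9 and 2, and PRRX2, the paralogue of PRRX1, had 8, 10 and 3, with 3 sites of all 3 factors. Per 100 kb of locus, TCF4 held 2.21 DPF3a, 1.66 SMAD4 and 0.369 p300 peaks. HMGA2 held 4.96, 2.89 and 0 and PRRX2 8.32, 10.4 and 3.12, against medians of 1.97, 2.14 and 0.528 over all genes. GSC and KLF8 had no peak in any list. SMAD4 promoter summits were found at 8 of these 13 genes and DPF3a promoter summits at 2, against 57.2% and 41.7% of all genes.

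Among 12 partners and corepressors of the members, all 12 had DPF3a and SMAD4 summits and 11 a p300 summit, with 8 holding a site of all 3 factors, against 70.9%, 75.1%, 54% and 38.1% of all genes. LOXL2, which stabilises Snail, had 11 DPF3a, 13 SMAD4 and 4 p300 peaks, and ID1 and ID2, inhibitors of helix-loop-helix factors and known targets of SMAD signalling, had 4, 7 and 3 and 7, 10 and 2 peaks. DPF3a had promoter summits at 9 of these 12 genes, SMAD4 at 11 and p300 at 7, where the shares of all genes are 41.7%, 57.2% and 32.9%. The list is small and these differences were not tested. Of 9 annotated genes for regulators of the stability of the member proteins, such as GSK3B, a kinase that marks Snail for degradation, 8 had a DPF3a, 9 a SMAD4 and 6 a p300 summit.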

How the data were processed

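ChIP-seq for HA-tagged DPF3a, SMAD4 and p300 was done in 786-O cells, with 2 libraries per factor, 6 in all, grouped by the factor in their titles. Per the labels and the study's methods, the authors trimmed reads with cutadapt, mapped them to hg38 with Bowtie2 2.3.5.1, removed duplicates with Picard as well as mitochondrial reads and reads of mapping quality under 30, called peaks with MACS2 2.2.5 and kept those with a score over 50; deepTools 3.5.0 is also named. No control library is named. The 2 libraries of a factor gave 1 deposited list, by a way of joining them that is not given in the sources used here.

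The score that the authors deposited is 10 times the −log10 q, rounded down. The deposited fold enrichment is the ratio of the summit pileup to the local background, each plus 1, and was used with the deposited −log10 p and −log10 q values, which measure the pileup against a Poisson distribution. The number of reads at each summit, a whole number, and its local background were solved from fold enrichment and −log10 p, and gave −log10 p back with errors of at most 6.9e-04 (DPF3a), 8.6e-04 (SMAD4) and 2.1e-04 (p300). The genome-wide backgrounds of 1.17, 2.25 and 2.05 reads correspond to 15.8, 30.4 and 27.6 M reads, if fragments are 200 bp long and the effective genome size is 2.7 Gb. Regions rich in reads without binding are not filtered by a background of this kind.

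Genes and transcript starts are from GENCODE 44, and coordinates count from 1. All peaks ended within their chromosomes. Overlap calls were identical to those of bedtools 2.31.1 in 12 of 12 combinations, and the code was tested on simulated data. Sequence was read from hg38 with pysam 0.24.0, and motifs were matched as exact letters on both strands. Shares have Wilson intervals and heights exact Poisson intervals, both at 95% and for counting error only. Percentiles are ranks of fold enrichment within a list, with ties averaged.

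For each of the 9 genes, each site of all 3 factors is described, otherwise each site of a pair of factors, otherwise the peak of the highest percentile. The genes, the gene lists and the alternatives were chosen with earlier results of these data known. Scores over 100 and 200, other flanks, promoter windows, overlap rules and motif windows, and lists of equal length were tried. The listed name DUB3 was not found in the annotation. Proteins were not analysed here, and the sequences of some summits are not reported here.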

Additional observations from a re-analysis of the deposited data

How the results depend on the processing

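No paired analysis was possible because the 2 libraries of a factor were pooled into 1 list, so that no replicate could be left out either. Of 106 recomputed values of 22 results, 65 stayed within the limits set, which were 1.5 times for a count and the interval of the value otherwise, and 41 did not. Higher score thresholds removed most. With scores over 100, 20 DPF3a, 18 SMAD4 and 1 p300 peaks were left in the loci, p300 reached 1 gene, promoter summits were at 0 genes for DPF3a and 1 for p300, 0% of p300 summits had the AP-1 consensus, and sites of DPF3a with SMAD4 numbered 7, of DPF3a with p300 0, of SMAD4 with p300 1 and of all 3 factors 0. With scores over 200, 9 DPF3a peaks at 5 genes, 11 SMAD4 peaks and 0 p300 peaks at 0 genes were left, with 0, 3 and 0 genes with promoter summits. Lists of equal length had 16 DPF3a peaks at 5 genes and 11 SMAD4 peaks. Without flanks there were 14 DPF3a peaks and 10 SMAD4 peaks at 4 genes, and 5, 4, 2 and 2 sites in the order above. Where flanks did not stop at the next gene there were 53 DPF3a peaks and 26, 11, 9 and 9 sites. A flank of 100 kb gave 11, 9 and 9 sites of the last 3 kinds, and one of 20 kb gave 10 of DPF3a with SMAD4. Promoters of 2500 bp on both sides raised the genes with a DPF3a summit to 5. Without peaks that touch no other list, an alternative chosen after seeing the data, 21 DPF3a and 9 p300 peaks were left. By −log10 q in place of fold enrichment, the median percentiles of the peaks moved from 34.9 to 54.5 for DPF3a, from 36.1 to 45.2 for SMAD4 and from 49.4 to 29.2 for p300, all within the intervals. With medians of 25, 39 and 23 reads at the summit over the lists, most peaks carry a wide counting error.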

Other observations

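The genes that the EMT factors oppose were counted in the same way. The 25 genes for epithelial factors and targets include 5 microRNAs, which share peaks with each other and are described apart. Of the 20 protein-coding ones, 19 had a DPF3a, 18 a SMAD4 and 16 a p300 summit in the locus, and 12 had a site of all 3 factors, against 70.9%, 75.1%, 54% and 38.1% of all protein-coding genes. Neighbours such as KRT8 and KRT18 or CLDN3 and CLDN4 can also share peaks, so these counts are not independent. CDH1, which encodes E-cadherin, had 8 DPF3a, 10 SMAD4 and 2 p300 peaks, 1 site of all 3 factors and no promoter summit in any list. GRHL3, a grainyhead factor of epithelia, had 10, 10 and 3 peaks with 3 sites of all 3 factors, and CLDN4, a claudin of tight junctions, had 5, 4 and 3 peaks, also with 3 such sites. KRT8, a keratin of simple epithelia, had 5, 11 and 2 peaks, and ELF3, an epithelial ETS factor, had 7, 5 and 1. OCLN, which encodes the tight junction protein occludin, had no peak in any list. Per 100 kb of locus, the medians of these 20 genes were 4.77 DPF3a, 5.56 SMAD4 and 1.67 p300 peaks, against 2.52, 3.0 and 1.61 for the 9 EMT factors and 1.97, 2.14 and 0.528 over all protein-coding genes. These differences were not tested.

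The miR-200 microRNAs repress ZEB1 and ZEB2. MIR200A, MIR200B and MIR429 share 1 locus, with 4 DPF3a, 4 SMAD4 and 1 p300 peaks around each and 1 site of all 3 factors. MIR200C and MIR141 share a locus of 4010 bp, which held 1 SMAD4 peak and no DPF3a or p300 peak, so that the 2 clusters are counted over very different lengths.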
